A study of Mus musculus with 4 samples.

Results

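Trem2, Tyrobp, Syk, Gpnmb, Spp1, Lgals3, Cd9 and Cd63 were followed in RNA sequencing of mouse peritoneal macrophages with and without Dnmt1, the DNA methyltransferase that copies methylation at CpG sites onto newly made DNA. The 8 genes were chosen by name as genes of the lipid-associated, Trem2-high macrophage state described in atherosclerotic plaques. The rule is by name and uses no measured value, although earlier results of these data were known when the genes were proposed. Each matched 1 row of the 13834 in the deposited count table, and all 8 were among the 12542 rows with enough counts to be tested.

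The study sequenced these cells to survey how loss of Dnmt1 changes gene expression as a whole. There were 2 samples from Dnmt1fl/fl mice, which carry floxed Dnmt1 and whose genotype is labelled wt, and 2 from Dnmt1KO mice, labelled as a myeloid-specific knockout, in which Cre recombinase driven by the LysM promoter acts on the same floxed gene. Mice of both genotypes were 10 weeks old and received 2 ml of 4% thioglycolate broth into the peritoneal cavity 3 days before lavage. The cells were collected by centrifugation and then cultured, and no sorting step was described. Cre expressed from the LysM promoter is active in neutrophils as well as macrophages, and recombination need not reach every cell. The sources do not say whether a sample was 1 mouse or a pool, so the p-values measure the spread between these samples, which may be technical.

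TREM2 is a receptor for lipids and lipoproteins on macrophages and microglia. It has no signalling tail of its own and works through the adaptor TYROBP (DAP12), whose phosphorylated ITAM motif recruits the kinase SYK. Macrophages that take up much lipid, in plaques, fat tissue and injured tissue, characteristically carry TREM2 together with GPNMB, osteopontin (Spp1), galectin-3 (Lgals3) and the tetraspanins CD9 and CD63, proteins of lysosomes, secretion and membrane vesicles. Inflammatory macrophages drawn out by thioglycolate are known for high galectin-3.

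Dnmt1 itself was at 86.6 and 67.0 CPM (counts scaled with TMM to a common library total) in Dnmt1fl/fl replicates 1 and 2 and at 37.0 and 42.7 CPM in Dnmt1KO replicates 1 and 2. Both Dnmt1KO samples were below both Dnmt1fl/fl samples, in the direction of the labels, at -0.95 on the log2 scale (standard error 0.24, with edgeR's adjusted p at 1.00). The Dnmt1KO samples stood further from each other than the controls did, with a median absolute log2 difference over all tested genes of 0.48 against 0.21. Dnmt1KO replicate 1 was the highest of the 4 samples in 38.8% of the tested genes and the lowest in 39.6%. For this reason the fitted differences of the 8 genes are also given without that library, and levels and ratios are given in every sample. Total counts ran from 20228071 to 24198943 per sample, and the lowest count of any of the 8 genes in any sample was 8036, for Cd9 in Dnmt1KO replicate 2.

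The promoters of 4 of the genes are shown because CpG methylation at a promoter would lie in this sequence. Spp1, Lgals3 and Cd9 were chosen as the genes that differed most between the Dnmt1KO samples, and Trem2 as the receptor that gives the state its name. Methylation was not measured in these samples. Each run reads 5′ to 3′ on the strand of the gene, ends before the first exon base annotated by GENCODE M21 or at the RefSeq transcript start, and has its CpG dinucleotides in capitals. The sequences are from RefSeq on GRCm38.p6.
Spp1, chr5:104434861-104435110, plus strand: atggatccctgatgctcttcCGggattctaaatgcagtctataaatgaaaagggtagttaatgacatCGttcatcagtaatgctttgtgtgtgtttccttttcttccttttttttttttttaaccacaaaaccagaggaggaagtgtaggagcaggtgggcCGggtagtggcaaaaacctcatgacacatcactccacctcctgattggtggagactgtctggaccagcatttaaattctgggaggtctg
Lgals3, chr14:47373610-47373812, plus strand: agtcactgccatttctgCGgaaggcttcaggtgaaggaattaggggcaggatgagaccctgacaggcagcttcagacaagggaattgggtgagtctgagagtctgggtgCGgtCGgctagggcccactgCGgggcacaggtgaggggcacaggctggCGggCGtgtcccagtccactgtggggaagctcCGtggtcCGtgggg
Cd9, chr6:125494792-125495010, minus strand: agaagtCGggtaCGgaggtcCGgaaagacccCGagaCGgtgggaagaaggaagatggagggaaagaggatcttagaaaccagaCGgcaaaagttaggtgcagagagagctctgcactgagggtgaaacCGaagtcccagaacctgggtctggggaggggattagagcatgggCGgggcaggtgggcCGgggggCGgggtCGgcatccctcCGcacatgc
Trem2, chr17:48346151-48346400, plus strand: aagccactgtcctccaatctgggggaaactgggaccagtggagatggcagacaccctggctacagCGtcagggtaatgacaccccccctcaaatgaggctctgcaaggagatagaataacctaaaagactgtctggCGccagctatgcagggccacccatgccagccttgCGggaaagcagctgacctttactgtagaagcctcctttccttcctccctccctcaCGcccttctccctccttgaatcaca
The printed Spp1 stretch held 3 CpGs, that of Trem2 4, that of Lgals3 8 and that of Cd9 12. The Lgals3 start in RefSeq lies inside the span that GENCODE gives the gene.

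Counted over the whole promoter window of 300 bases (250 before and 50 after the start), the genes differed widely in CpG content. Spp1 held 3 CpGs in its window, a number that 23.3% of the 32851 RefSeq windows fell short of. Trem2 held 5 and Cd63 6, close to the median of 7 over all windows. Gpnmb held 9. Lgals3 and Cd9 each held 18, more than 70.3% of windows, and Syk held 31 at its first start, more than 89.4%, against 2 at its second start. The RefSeq table had a window for 7 of the 8 genes, and Tyrobp was the gene without one. The 3 genes that differed most between the Dnmt1KO samples thus held 3 (Spp1) and 18 CpGs (Lgals3 and Cd9). The quartiles over all windows were 3 and 20.

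Short motifs were searched on both strands of the same windows. TGANTCA, the AP-1 type motif, was found in Trem2 and Gpnmb and in 7.81% of all windows. GAGGAAG, a motif of the PU.1 type, was found in Trem2, Cd63 and the first Spp1 start and in 13.6% of all windows. CATGTG, an E-box used by MITF and its relatives, was found in Cd9 and in 14.2% of all windows. CACGTG, the E-box shared by MYC and the MiT factors, was in no window of these genes and in 7.15% of all. Trem2 was the only one of the 7 genes with more than 1 of these motifs, and its 2 matches did not overlap. A match of this length describes letters and is not a binding site.

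None of the 8 genes passed the test between genotypes. By edgeR's quasi-likelihood test with Benjamini-Hochberg adjustment, 0 of 8 had an adjusted p under 0.05, where 0% of the 12542 tested genes did, and 0 of 8 had an unadjusted p under 0.05, where 0.279% of tested genes did. DESeq2 and limma-voom also called 0 of the 8. Without Dnmt1KO replicate 1, 1 of the 8 (Cd9, lower in Dnmt1KO) had an unadjusted p under 0.05 from edgeR, as did 352 of the 12912 genes then tested, and 0 had an adjusted p under 0.05. Without Dnmt1KO replicate 2, 3 of the 8 (Spp1, Lgals3 and Cd9, all higher in Dnmt1KO) had an adjusted p under 0.05 from edgeR, where 8.32% of the 12754 genes then tested did. In no case were both Dnmt1KO samples on the same side of both Dnmt1fl/fl samples, a pattern seen in 16.7% of tested genes (8.14% with both Dnmt1KO samples above and 8.56% with both below). The size limit of the study's methods, 0.2 on the log2 scale, was passed by 5 genes, beside 41.5% of tested genes in either direction. All 5 (Spp1, Lgals3, Gpnmb, Cd9 and Cd63) passed it upward, where 21.8% of tested genes did, and 0 passed it downward, where 19.7% did. Without Dnmt1KO replicate 1 these counts were 1 upward (Gpnmb) and 2 downward (Spp1 and Cd9), beside 20.9% and 21.2% of the genes then tested. Without Dnmt1KO replicate 2 they were 7 upward and 0 downward, beside 34.3% and 38.0%. With no scaling 3 of the 8 passed the limit upward and 0 downward, beside 13.5% and 26.7% of tested genes. With the correction for transcript length 3 passed it upward and 0 downward, beside 23.4% and 15.7% of the genes then tested. The median log2 fold change of the 8 was 0.26 with all samples, -0.07 without Dnmt1KO replicate 1 and 0.43 without Dnmt1KO replicate 2, and over all tested genes it was 0.0046 with all samples. The median of the 8 was 0.16 with no scaling and 0.13 with the length correction, beside -0.06 and 0.05 over all genes tested in those fits.

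The receptor Trem2 lies on chromosome 17 from 48346401 to 48354147 on the plus strand (GENCODE M21, GRCm38, as for all positions here). It was at 737 and 628 CPM in Dnmt1fl/fl replicates 1 and 2 and at 879 and 656 CPM in Dnmt1KO replicates 1 and 2. Dnmt1KO replicate 1 was the highest sample, while Dnmt1KO replicate 2 fell between the controls, so the genotypes overlapped. The means were 683 ± 77.0 CPM (SD, n = 2) in Dnmt1fl/fl and 768 ± 157 CPM (SD, n = 2) in Dnmt1KO, and the log2 fold change was 0.17 (standard error 0.27, 95% interval -0.49 to 0.83, adjusted p = 1.00 from edgeR). The log2 ratio of geometric means, 0.16, was smaller than the pooled replicate SD of 0.24. The fitted log2 fold change was -0.06 without Dnmt1KO replicate 1 and 0.36 without Dnmt1KO replicate 2.

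Tyrobp, the adaptor, lies on chromosome 7 from 30413760 to 30417585 on the plus strand. It was at 831 and 820.0 CPM in the Dnmt1fl/fl samples and at 979 and 830 CPM in the Dnmt1KO samples. It varied least of the 8 between replicates, with Dnmt1KO replicate 1 above the other 3 samples. Its fitted log2 fold change was 0.13 (standard error 0.24, 95% interval -0.46 to 0.72, adjusted p = 1.00 from edgeR). It was 0.0045 without Dnmt1KO replicate 1 and 0.25 without Dnmt1KO replicate 2. The difference of 0.13 was about the size of the pooled replicate SD of 0.12. Its sign turned to -0.02 when a trend with transcript length was removed from each library.

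Syk, the kinase that docks on phosphorylated TYROBP, lies on chromosome 13 from 52583173 to 52648792 on the plus strand. It was at 606 and 560.2 CPM in the Dnmt1fl/fl samples and at 513 and 656 CPM in the Dnmt1KO samples. Here Dnmt1KO replicate 1 was the lowest sample and Dnmt1KO replicate 2 the highest, with both controls between them. The means were almost equal, 583 ± 32.6 CPM (SD, n = 2) in Dnmt1fl/fl and 585 ± 102 CPM (SD, n = 2) in Dnmt1KO. On the log2 scale the difference was 0.0033 (standard error 0.25, 95% interval -0.61 to 0.62, adjusted p = 1.00 from edgeR). It was 0.17 without Dnmt1KO replicate 1 and -0.19 without Dnmt1KO replicate 2, and its sign changed with the scaling, the filter and the model.

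The ratio of receptor to adaptor, per kilobase of transcript, was 0.460 and 0.397 in the Dnmt1fl/fl samples and 0.465 and 0.410 in the Dnmt1KO samples. The 2 genotypes overlapped in this ratio and each spanned nearly the same range. The size of the ratio, though not its order over samples, depends on the transcripts chosen: with the longest annotated transcripts the mean level of Trem2 was 152 and that of Tyrobp 1449 CPM per kilobase, in place of 667 and 1534. Syk per kilobase stood at 0.0767 and 0.0718 of Tyrobp in the Dnmt1fl/fl samples and at 0.0551 and 0.0832 in the Dnmt1KO samples. The Dnmt1KO samples were the lowest and the highest of the 4 in that ratio. The spread of the receptor, adaptor and kinase between replicates was below that of the genes described next. The pooled SD on the log2 scale was 0.24 for Trem2, 0.12 for Tyrobp and 0.19 for Syk. It was 0.37 for Cd63, 0.43 for Gpnmb, 0.55 for Lgals3, 0.67 for Cd9 and 1.16 for Spp1.

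**Figure D1:**
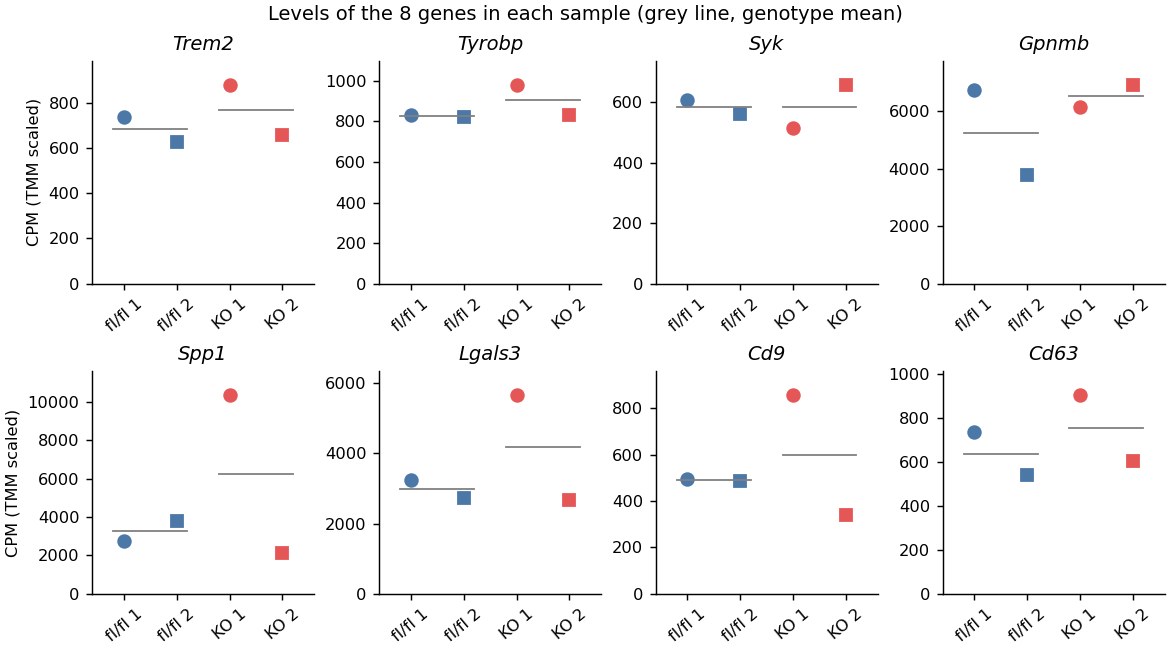
Level of each of the 8 genes in each sample, as TMM-scaled CPM on a linear axis from 0, with 1 panel per gene. Circles are replicate 1 and squares replicate 2, blue is Dnmt1fl/fl and red Dnmt1KO, and the grey line is the genotype mean. Dnmt1KO replicate 1 is the highest sample in 6 panels, and the red circle for Spp1 at 10349 CPM stands 2.75-fold above the next sample.

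Spp1 encodes osteopontin, a secreted protein that binds integrins and CD44, and lies on chromosome 5 from 104435118 to 104441050 on the plus strand. It was at 2740.5 and 3770 CPM in the Dnmt1fl/fl samples and at 10349 and 2127 CPM in the Dnmt1KO samples. Dnmt1KO replicate 1 was the highest and Dnmt1KO replicate 2 the lowest of all, 4.86-fold apart, with the controls between them. The log2 fold change of 0.94 was the largest of the 8 and had the widest interval, from -0.84 to 2.72 (standard error 0.72, adjusted p = 1.00 from edgeR). The value rested on a single library: without Dnmt1KO replicate 1 it was -0.62, and without Dnmt1KO replicate 2 it was 1.67 with an adjusted p of 0.00641 from edgeR, in a fit that called 8.32% of all genes. The ratio of geometric means, which a single high sample moves less, gave 0.55 on the log2 scale beside a pooled SD of 1.16.

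Lgals3 encodes galectin-3, a lectin that binds glycans on the cell surface and on damaged lysosomes, and lies on chromosome 14 from 47367751 to 47386160 on the plus strand. Its level was 3246 and 2725 CPM in the Dnmt1fl/fl samples and 5657 and 2679 CPM in the Dnmt1KO samples. As for Spp1, Dnmt1KO replicate 1 was highest and Dnmt1KO replicate 2 lowest, 2.11-fold apart. Here, though, Dnmt1KO replicate 2 was close to Dnmt1fl/fl replicate 2, and the controls were in the reverse order. A log2 fold change of 0.48 was fitted (standard error 0.41, 95% interval -0.54 to 1.505, adjusted p = 1.00 from edgeR). It was -0.16 without Dnmt1KO replicate 1 and 0.92 without Dnmt1KO replicate 2, the latter with an adjusted p of 0.0403 from edgeR in that same fit.

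Cd9, a tetraspanin of the plasma membrane and of exosomes, lies on chromosome 6 from 125460266 to 125494791 on the minus strand. It was at 495 and 485 CPM in the Dnmt1fl/fl samples and at 856 and 340.5 CPM in the Dnmt1KO samples. The controls differed by 0.03 on the log2 scale and the Dnmt1KO samples by 1.33, again with Dnmt1KO replicate 1 highest and Dnmt1KO replicate 2 lowest. The fit gave 0.29 on the log2 scale (standard error 0.45, 95% interval -0.83 to 1.40, adjusted p = 1.00 from edgeR). Leaving out Dnmt1KO replicate 1 gave -0.53 (adjusted p = 1.00 from edgeR), and leaving out Dnmt1KO replicate 2 gave 0.81 (adjusted p = 0.0417 from edgeR, again in the fit that called 8.32% of genes). Like Spp1, then, Cd9 had opposite signs according to which Dnmt1KO library was kept.

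Cd63, a tetraspanin of late endosomes and lysosomes, lies on chromosome 10 from 128900989 to 128912822 on the plus strand. It was at 738 and 540.6 CPM in the Dnmt1fl/fl samples and at 906 and 605 CPM in the Dnmt1KO samples. Replicate 1 was above replicate 2 within each genotype, and Dnmt1KO replicate 2 lay between the controls. Its fitted log2 fold change was 0.24 (standard error 0.31, 95% interval -0.54 to 1.02, adjusted p = 1.00 from edgeR). It was -0.08 without Dnmt1KO replicate 1 and 0.50 without Dnmt1KO replicate 2. Leaving out Dnmt1fl/fl replicate 1 gave 0.48, and leaving out Dnmt1fl/fl replicate 2 gave 0.04.

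Gpnmb encodes a transmembrane glycoprotein of lysosomes that is a known target of the MiT transcription factors, and lies on chromosome 6 from 49036546 to 49070929 on the plus strand. It was at 6746 and 3775 CPM in the Dnmt1fl/fl samples and at 6149 and 6917 CPM in the Dnmt1KO samples. Its outlying sample was a control, Dnmt1fl/fl replicate 2, which was lowest, and the remaining 3 lay together. The fitted log2 fold change was 0.31 (standard error 0.36, 95% interval -0.59 to 1.21, adjusted p = 1.00 from edgeR). Without Dnmt1KO replicate 1 it was 0.39, in the same direction, and without Dnmt1fl/fl replicate 2 it was -0.04. Gpnmb was also the 1 gene of the 8 in which the Dnmt1KO samples differed by less than the genotype means. Over all tested genes the Dnmt1KO samples differed by more than the genotype means in 84.1%.

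**Figure D2:**
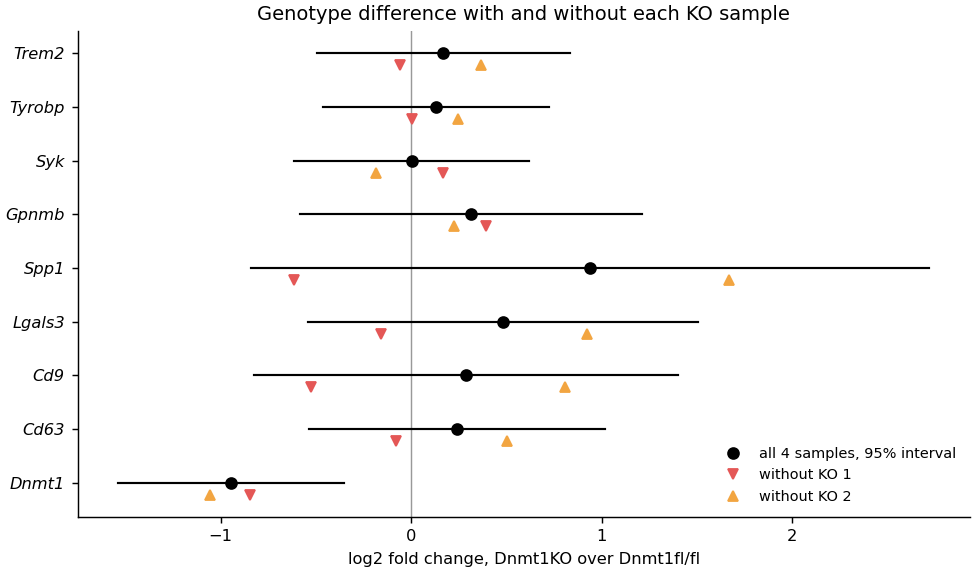
Log2 fold change of Dnmt1KO over Dnmt1fl/fl from edgeR for Dnmt1 and the 8 genes, with the 95% interval from all 4 samples (points and bars) and the value when either Dnmt1KO library is left out (triangles). The intervals of all 8 genes hold 0, and the 2 triangles lie on opposite sides of 0 for Trem2, Syk, Spp1, Lgals3, Cd9 and Cd63 and on the same side for Tyrobp and Gpnmb. Those of Dnmt1 are at -0.85 and -1.05.

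Ranked by sample, Dnmt1KO replicate 1 was highest in 6 of the 8 genes (background 38.8%) and Dnmt1KO replicate 2 in the other 2, Syk and Gpnmb. The lowest sample was Dnmt1fl/fl replicate 2 for Trem2, Tyrobp, Gpnmb and Cd63 (background 16%), Dnmt1KO replicate 2 for Spp1, Lgals3 and Cd9 (background 25.8%) and Dnmt1KO replicate 1 for Syk (background 39.6%). The genes thus did not share a single order of samples. Together the 8 genes took 1.64% and 1.38% of all counts in the Dnmt1fl/fl samples and 2.39% and 1.55% in the Dnmt1KO samples. Spp1 alone took 0.942% of the counts of Dnmt1KO replicate 1 and 0.222% of those of Dnmt1KO replicate 2.

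Levels can be compared between genes only per length of transcript, and for this CPM was divided by the length of each gene's principal transcript. Spp1 came first at 3150 ± 2519 CPM per kilobase (SD over the 4 samples), the 15th highest of 12360 genes with a length. Lgals3 followed at 2520.5 ± 994 and then Gpnmb at 1593 ± 392 and Tyrobp at 1534 ± 135 CPM per kilobase. Spp1 and Lgals3 exchanged places between samples, as did Gpnmb and Tyrobp, each being above the other in 2 of 4 samples. Lgals3 was above Gpnmb in all 4 samples, with ranges that did not overlap. These 4 genes ranked within the first 27 of all genes.

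Trem2 came next at 667 ± 103 CPM per kilobase, below Tyrobp in every sample, with the mean of the adaptor 2.30-fold that of the receptor. Cd63 at 629 ± 145 CPM per kilobase did not differ from Trem2 beyond the spread. Cd9 at 443 ± 179 CPM per kilobase was below Cd63 in all 4 samples, though their ranges overlapped. Syk was the lowest at 109 ± 11.5 CPM per kilobase, apart from all the others and still 626th of 12360 genes. The place of Trem2 and Cd63 in this order depended on the transcript chosen. With the longest annotated transcript in place of the principal one they were at 152 and 241 CPM per kilobase, so the 2.30-fold gap between adaptor and receptor and the ratio of Cd9 to Cd63 hold for the principal transcripts only. With the summed length of all exons of each gene, Gpnmb was at 905 and Tyrobp at 1297 CPM per kilobase.

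**Figure D3:**
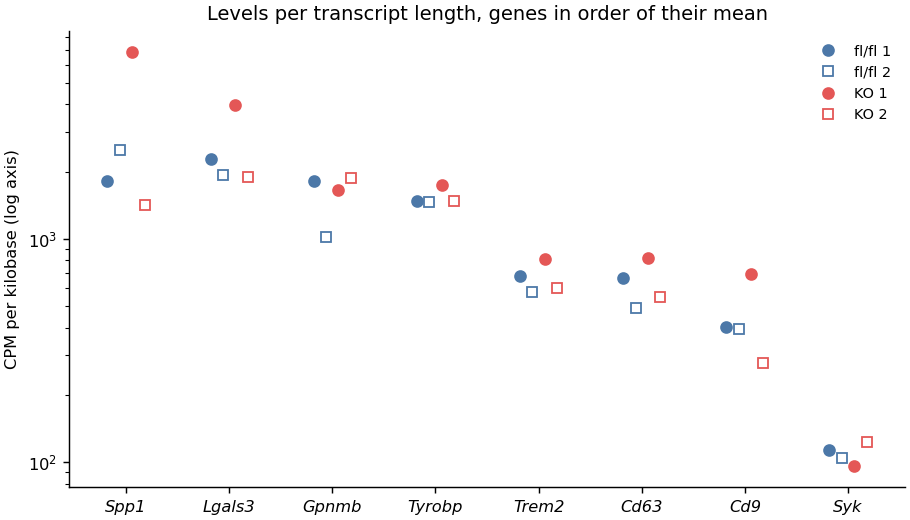
Level of each of the 8 genes per kilobase of principal transcript in each sample, on a log axis, ordered by the mean over the 4 samples; colours and shapes mark genotype and replicate. Spp1, Lgals3, Gpnmb and Tyrobp lie at or above 1020.1 CPM per kilobase in all 4 samples, and Syk lies between 95.6 and 122 CPM per kilobase.

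Within the foamy genes the balance shifted between samples rather than between genotypes. Spp1 per kilobase was 0.998 and 2.45 times Gpnmb in the Dnmt1fl/fl samples and 4.13 and 0.755 times Gpnmb in the Dnmt1KO samples. By the principal transcripts Gpnmb was thus the more abundant in Dnmt1KO replicate 2 and Spp1 in Dnmt1KO replicate 1. The size of this ratio depends on the length chosen. With all exons of each gene, mean Spp1 was 2880 and mean Gpnmb 905 CPM per kilobase, in place of 3150 and 1593. Cd9 per kilobase was 0.606 and 0.810 of Cd63 in the Dnmt1fl/fl samples and 0.854 and 0.508 in the Dnmt1KO samples, and the genotypes overlapped.

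The genes whose log2 CPM ran most like that of Trem2 over the 4 samples were Pold2, Tefm, Alg2, Sh2d1b1 and Echdc3. Likeness was the root mean square difference of deviations from each gene's mean, which was 0.0136 for Pold2 and 0.0195 for Echdc3. Pold2, a subunit of DNA polymerase delta, was at 6.87 and 5.98 CPM in the Dnmt1fl/fl samples and at 8.28 and 6.10 CPM in the Dnmt1KO samples. Among the other 7 genes of the state, Tyrobp (0.0996) and Cd63 (0.102) ran most like Trem2, at ranks 587 and 631 of all genes, and Spp1 (0.728, rank 11309) least. With 4 samples that share their scaling this is a description only.

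The markers of other cell types moved with Dnmt1KO replicate 1 as well. Summed over the neutrophil markers the level was 215 and 319 CPM in the Dnmt1fl/fl samples and 879 and 217 CPM in the Dnmt1KO samples, with 7 of 9 markers in the table and Dnmt1KO replicate 1 highest in all 6 that were tested. S100a9, a calprotectin subunit of neutrophils, was at 5.55 and 60.5 CPM in the Dnmt1fl/fl samples and at 320.1 and 8.35 CPM in the Dnmt1KO samples, while the granule genes Camp and Ngp had no row. Markers of mesothelial cells and fibroblasts summed to 36.1 and 49.0 CPM in the Dnmt1fl/fl samples and to 94.5 and 25.2 CPM in the Dnmt1KO samples, and all 7 were highest in Dnmt1KO replicate 1. The order of the 4 samples in this second sum was that of Spp1, but not that of Lgals3 or Cd9. This comparison was made after the values were seen, and a link was not tested.

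Other lists went the opposite way in that library. All 8 markers of resident large peritoneal macrophages were lowest there (summed, 1052 and 1352 CPM in Dnmt1fl/fl, 768 and 1020 CPM in Dnmt1KO), as were 6 of 8 markers of recruited monocytes and small peritoneal macrophages (4798 and 3971, then 2743 and 4807 CPM). The other 2 markers of that list were highest in Dnmt1KO replicate 1. These were Ly6c2 (7.80, 18.7, 23.3 and 7.46 CPM) and Itgax (81.0, 66.7, 92.5 and 58.2 CPM in the same order). B cell markers, 7 of 7 lowest there, summed to 323 and 487 CPM in Dnmt1fl/fl and to 130 and 531 CPM in Dnmt1KO, and dendritic cell markers, 6 of 6, to 42.3, 40.8, 23.6 and 53.1 CPM in the same order. T cell markers summed to 28.2 to 37.0 CPM, eosinophil markers to 7.67 to 14.1 CPM with Prg2 and Epx without a row, and mast cell markers to 8.69 to 12.6 CPM. Of the defining macrophage markers, Csf1r was at 1011 to 1126 CPM and Adgre1 at 700 to 986 CPM. The macrophage markers summed to 35999 and 34981 CPM in Dnmt1fl/fl and to 18435 and 21886 CPM in Dnmt1KO, and without Lyz2, the gene whose locus carries the LysM-Cre insertion, to 6469, 6393, 7083 and 6142 CPM. What part the other cell types had in the levels of the 8 genes was not tested, and in bulk samples fewer cells of a type and less RNA per cell cannot be told apart.

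**Figure D4:**
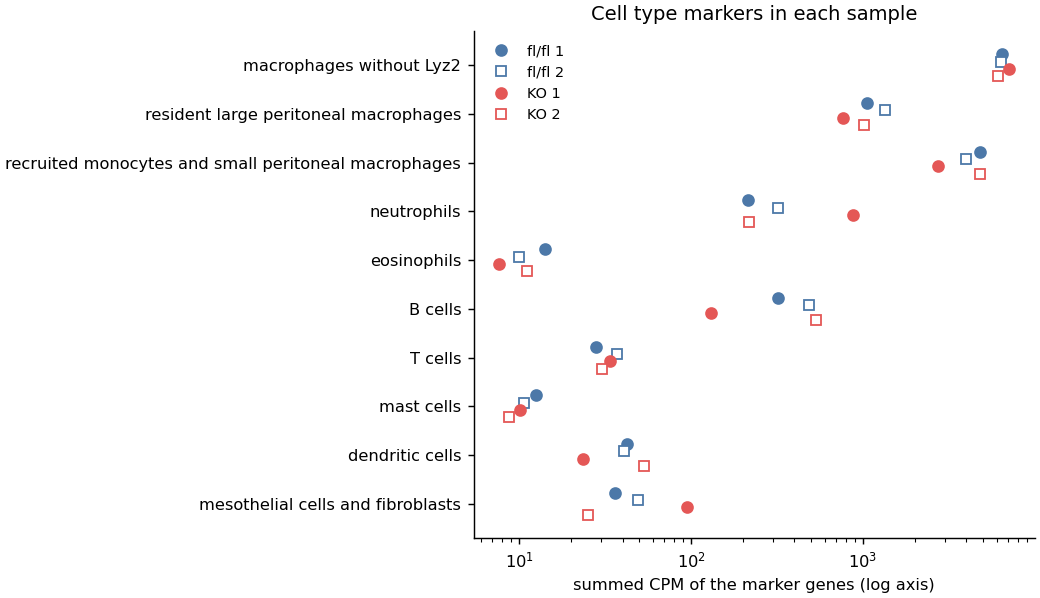
Summed level of each list of cell type markers in each sample, in CPM on a log axis; the macrophage list is drawn without Lyz2. Dnmt1KO replicate 1 stands highest for neutrophils, at 879 CPM, and for mesothelial cells and fibroblasts, at 94.5 CPM, and lowest for B cells, at 130 CPM.

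Beyond the 8 genes, 8 lists of related genes were counted, 111 genes in all, of which 105 were tested. By edgeR, 0 were called at an adjusted p under 0.05 and 1 had an unadjusted p under 0.05, where 0.279% of all tested genes did. The limit of 0.2 was passed by 36 upward and 14 downward, to be read, like the counts of each list, against 21.8% and 19.7% of all tested genes, and the median was 0.08 beside 0.0046 over all tested genes. The gene with the unadjusted p under 0.05 was Acp5, the tartrate-resistant acid phosphatase of osteoclasts and lipid-laden macrophages. Acp5 was at 85.6 and 89.0 CPM in the Dnmt1fl/fl samples and at 167 and 114 CPM in the Dnmt1KO samples, a log2 fold change of 0.69 (adjusted p = 1.00 from edgeR). The Acp5 value was 0.38 without Dnmt1KO replicate 1 and 0.94 without Dnmt1KO replicate 2.

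Around the receptor, 11 genes of Trem2 ligands and cleavage were tested, of which 0 were called, 6 reached the fold limit upward and 0 downward. The median log2 fold change was 0.22 with all samples, -0.06 without Dnmt1KO replicate 1 and 0.37 without Dnmt1KO replicate 2. Apoe, a lipoprotein ligand of TREM2, was at 15053 and 12339 CPM in the Dnmt1fl/fl samples and at 12286 and 13090 CPM in the Dnmt1KO samples, so the genotypes overlapped. Adam17, a sheddase of TREM2, was at 281 and 272 CPM in Dnmt1fl/fl and at 259 and 251 CPM in Dnmt1KO. Both Dnmt1KO samples were below both controls for Adam17, a pattern seen in 8.56% of tested genes.

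Among 14 other receptors and adaptors coupled to Tyrobp, 5 reached the fold limit upward, 3 downward and 0 were called. Their median log2 fold change was 0.10, or -0.28 without Dnmt1KO replicate 1 and 0.22 without Dnmt1KO replicate 2. Fcer1g, the adaptor most like TYROBP, was at 447 and 477 CPM in the Dnmt1fl/fl samples and at 790.2 and 451 CPM in the Dnmt1KO samples, highest in Dnmt1KO replicate 1. Its log2 fold change was 0.43 with all samples, -0.04 without that library and 0.77 without Dnmt1KO replicate 2. Sirpb1b and Sirpb1c, named for lacking overlap, were above the controls in both Dnmt1KO samples, at log2 fold changes of 0.17 and 0.20. That pattern was seen in 8.14% of tested genes, and these close paralogs may share reads. Without Dnmt1KO replicate 1 they were at 0.24 and 0.28, and without Dnmt1KO replicate 2 at 0.09 and 0.13. Downstream of Syk, 19 genes were tested, 1 reached the limit upward, 2 downward and 0 were called, with a median of -0.03, or -0.04 without Dnmt1KO replicate 1 and 0.03 without Dnmt1KO replicate 2. Malt1, of the CARD9-BCL10-MALT1 complex that SYK activates, was at 108 and 92.1 CPM in the Dnmt1fl/fl samples and at 56.0 and 81.3 CPM in the Dnmt1KO samples, a difference of -0.54 on the log2 scale (adjusted p = 1.00 from edgeR), or -0.30 without Dnmt1KO replicate 1 and -0.83 without Dnmt1KO replicate 2. Vav3, a guanine nucleotide exchange factor, was at -0.14 on the same scale, also without overlap. Lat2, a transmembrane adaptor, was at 0.21 with overlap, at -0.23 without Dnmt1KO replicate 1 and at 0.54 without Dnmt1KO replicate 2.

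The list nearest to the foamy genes held 21 other lipid-associated macrophage genes. Of these 14 reached the fold limit upward, 3 downward and 0 were called, with a median log2 fold change of 0.28. Dnmt1KO replicate 1 was the highest sample in 16 of the 21 and the lowest in 0. The median was -0.0099 without that library and 0.47 without Dnmt1KO replicate 2. Abcg1 and Abca1, both exporters of cholesterol, were named because they had the 2 largest fold changes among genes whose genotypes did not overlap. In 5 of the 21 genes both Dnmt1KO samples were above both controls, a pattern seen in 8.14% of tested genes. Abcg1 was at 256 and 240 CPM in Dnmt1fl/fl and at 384 and 283 CPM in Dnmt1KO, a log2 fold change of 0.43 (adjusted p = 1.00 from edgeR), and of 0.19 without Dnmt1KO replicate 1. Abca1 was at 0.33 with all samples and at 0.13 without that library. Without Dnmt1KO replicate 2 Abcg1 was at 0.63 and Abca1 at 0.50. Psap, the precursor of the lysosomal saposins, was at 22023 and 15898 CPM in Dnmt1fl/fl and at 26340 and 20512 CPM in Dnmt1KO, and the genotypes overlapped.

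Of the MiT transcription factors and their targets, the group to which Gpnmb belongs, 11 of 12 were tested, 3 reached the fold limit upward, 1 downward and 0 were called, with a median log2 fold change of 0.11. That median was 0.07 without Dnmt1KO replicate 1, -0.09 without Dnmt1KO replicate 2 and -0.08 without Dnmt1fl/fl replicate 2. Besides Acp5, the named genes were Dcstamp, a cell fusion protein measured at 0.381 to 3.59 CPM with a log2 fold change of -1.34 (-3.03 without Dnmt1KO replicate 1 and -0.57 without Dnmt1KO replicate 2), and Atp6v0d2, a subunit of the vacuolar proton pump. Atp6v0d2 was at 426 and 239 CPM in the Dnmt1fl/fl samples and at 321 and 399 CPM in the Dnmt1KO samples. Its lowest sample was Dnmt1fl/fl replicate 2, as for Gpnmb.

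Osteopontin receptors were 8, with 2 upward, 2 downward, 0 called and a median log2 fold change of -0.0077. Their median was -0.18 without Dnmt1KO replicate 1 and -0.02 without Dnmt1KO replicate 2. Itga9 was at 18.3 and 17.5 CPM in the Dnmt1fl/fl samples and at 10.7 and 12.8 CPM in the Dnmt1KO samples, a difference of -0.61 on the log2 scale (adjusted p = 1.00 from edgeR). Itgav was at -0.38 and Itgb1 at -0.17, and these were the 3 of the 8 receptor genes in which both Dnmt1KO samples were below both controls, where 8.56% of tested genes were. The naming rule picks genes without overlap, and Itgb3, Itgb5, Itga4, Itga5 and Cd44 overlapped. Itgb1 was at -0.25 without Dnmt1KO replicate 1 and at -0.10 without Dnmt1KO replicate 2. Of the other galectins 5 of 8 were tested, with 1 upward, 1 downward, 0 called and a median of 0.07. Their median was -0.17 without Dnmt1KO replicate 1 and 0.40 without Dnmt1KO replicate 2. Lgals1 was at 514 and 494 CPM in Dnmt1fl/fl and at 726 and 449 CPM in Dnmt1KO, in the same order of samples as Lgals3. Of the other tetraspanins 17 of 19 were tested, with 5 upward, 2 downward, 0 called and a median of 0.09. Their median was -0.09 without Dnmt1KO replicate 1, 0.18 without Dnmt1KO replicate 2 and 0.20 without Dnmt1fl/fl replicate 2. Tspan4 was at 0.42 and Tspan9, at 0.909 to 1.75 CPM, was at -0.52 on the log2 scale (-0.31 without Dnmt1KO replicate 1 and -0.78 without Dnmt1KO replicate 2), both without overlap, and Cd53, a tetraspanin of leukocytes, was at 0.01.

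**Figure D5:**
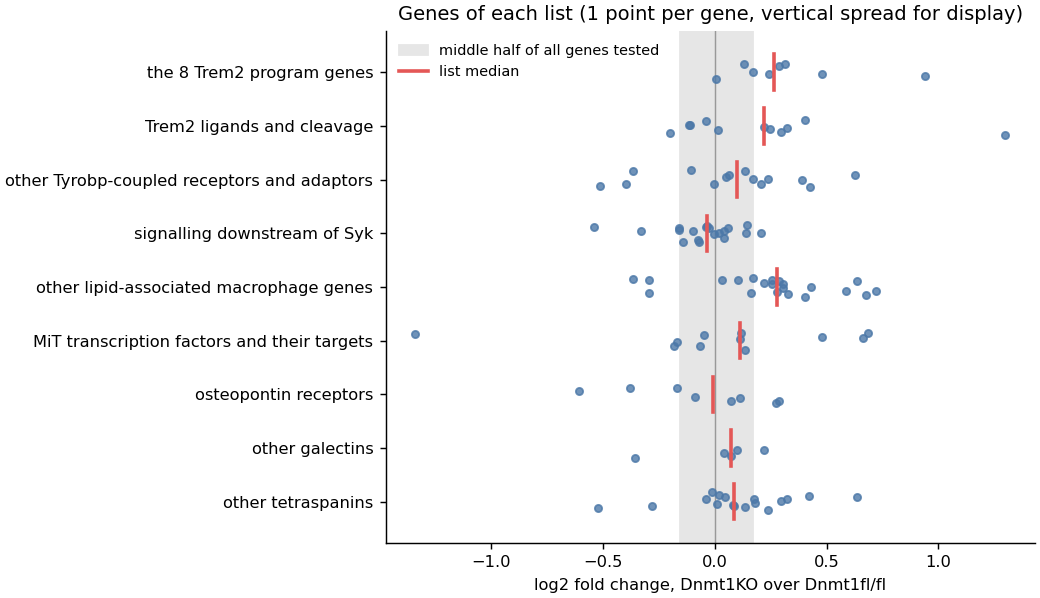
Log2 fold change of Dnmt1KO over Dnmt1fl/fl for each tested gene of each list (points), with the list median (red) and the span between the quartiles of all tested genes (grey band). The medians of the 8 Trem2 program genes and of the other lipid-associated macrophage genes are 0.26 and 0.28, and none of the points was called by edgeR.

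For 5 of the 8 genes (Trem2, Tyrobp, Syk, Gpnmb and Lgals3) the deposited counts were whole in all samples. Those of Spp1, Cd9 and Cd63 were not, and the sources do not say how ambiguous reads were divided. Spp1 shares 309 exon bases, 18.8% of its exons, with Gm42793 on the same strand, and Cd9 shares 218, or 10.7%, with Gm26728 on the opposite strand. Neither neighbour had a row in the table, and the strand setting of the counting was not stated.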

How the data were processed

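Total RNA of 4 samples of cultured mouse peritoneal macrophages (2 Dnmt1fl/fl, 2 Dnmt1KO) had been sequenced as paired-end reads. The authors aligned reads with HISAT2 2.0.5 and counted them per gene with featureCounts 1.5.0-p3, and the submitters' processing notes name mm10 and DESeq2 1.20.0. The annotation is not given in the sources used here. The deposited values are estimated counts per gene, not normalized, of which 72.6% to 76.4% per sample were whole numbers. The table lists genes above 0 in every sample. A shorter deposited count table of 2749 rows, all of them in the whole table, was not used.

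Counts were rounded, filtered with filterByExpr, scaled with TMM and tested with edgeR 4.0.16's quasi-likelihood F-test (R 4.3.3), in 2-sided form, adjusting p by Benjamini-Hochberg across all 12542 genes tested. At the common dispersion of 0.0837, replicates varied with a coefficient of variation of 28.9%. Totals ran from 20228071 to 24198943 counts, and 3 counts correspond to 0.124 to 0.148 CPM, a floor that covers counting error only. Alternatives were RLE scaling, no scaling, limma-voom (limma 3.58.1), DESeq2 1.42.0, other filters, a replicate block, a correction for transcript length (loess, span 0.5) and leaving out each sample. The crossed pairing and other transcript lengths were added after seeing the data.

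Replicate numbers come from the sample titles. Deviations of same-numbered samples correlated at -0.35 across genes, so the numbers were not taken as pairs. Lengths and positions are from GENCODE M21 matched by symbol (98.4% of rows had a length). The 8 genes and all lists were chosen with earlier results of these data known. From each list the text names the genes called or, with none called, the 2 largest fold changes without overlap of the genotypes and the highest level per kilobase, and it names the 5 genes most like Trem2. The result for 1 gene that this rule names is not reported here. Lyz2, S100a9, Csf1r, Adgre1, Ly6c2 and Itgax were named after their values were seen. Figures and summaries used Python 3.11.15.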

Additional observations from a re-analysis of the deposited data

How the results depend on the processing

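With all 4 samples kept, no alternative gave any of the 8 genes an adjusted p under 0.05, and over 11 fits the log2 fold change ran from 0.04 to 0.18 for Trem2, 0.25 to 0.45 for Gpnmb, 0.49 to 0.95 for Spp1, 0.32 to 0.49 for Lgals3, 0.05 to 0.30 for Cd9 and 0.10 to 0.25 for Cd63. Tyrobp changed sign with the transcript length correction (-0.0209), also when combined with the replicate block (-0.0173). Syk changed sign with no scaling (-0.0544), limma-voom (-0.0096), at least 10 counts in every sample (-3.19e-05) and the replicate block (-0.0065). The replicate block called 0 genes and moved Spp1 to 0.55 and Cd9 to 0.14, and the crossed pairing called 3 genes, with 297 at an unadjusted p under 0.05 against 35, and put Syk at -0.0065. DESeq2 called 1 gene, and without a filter 60 genes had an unadjusted p under 0.05. With no scaling 33.6% of genes past the fold limit were higher in Dnmt1KO, against 52.4%, and the median of all genes was -0.06. Leaving out single samples, an arm with 1 library being assumed to vary like the other, called 0 to 1061 genes in all (1061 without Dnmt1KO replicate 2, 10 without Dnmt1fl/fl replicate 2, 2 without Dnmt1fl/fl replicate 1) and gave -0.0590 to 0.36 for Trem2, 0.0045 to 0.25 for Tyrobp, -0.19 to 0.17 for Syk, -0.0423 to 0.79 for Gpnmb, -0.62 to 1.67 for Spp1, -0.16 to 0.92 for Lgals3, -0.53 to 0.81 for Cd9, -0.0800 to 0.50 for Cd63 and -1.12 to -0.75 for Dnmt1. In the lists it called 0 to 1 of the Trem2 ligands and cleavage genes, the Tyrobp-coupled receptors, the osteopontin receptors and the other galectins, 0 to 2 of the genes downstream of Syk and of the MiT group, 0 to 4 of the lipid-associated genes and 0 to 0 of the tetraspanins. All these calls came from the fit without Dnmt1KO replicate 2, where 8.32% of all genes were called. The causes of these changes were not tested. The lowest count of any of the 8 genes in a sample was 8036, and there were 2 libraries per genotype.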

Other observations

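Some receptors that signal through TYROBP followed neither the genotype nor Trem2 and were chosen for mention after their values were seen. Trem1, an activating receptor of neutrophils and monocytes, was at 1.27 and 18.1 CPM in Dnmt1fl/fl replicates 1 and 2 and at 18.8 and 0.636 CPM in Dnmt1KO replicates 1 and 2. Trem3 was at 0.244, 2.87, 4.70 and 0.212 CPM and Treml4 at 1.46, 5.90, 6.41 and 0.508 CPM in the same order. In all 3 genes Dnmt1fl/fl replicate 2 and Dnmt1KO replicate 1 were high and the other 2 samples low, whereas Trem2 had its lowest sample in Dnmt1fl/fl replicate 2. The neutrophil receptor Cxcr2 was at 2.63, 12.6, 35.8 and 3.05 CPM, with the same 2 samples high, as were S100a8, S100a9 and Mmp9. The neutrophil markers Retnlg (7.89, 6.22, 40.6 and 5.93 CPM) and Csf3r (158, 137, 169 and 159 CPM) were not high in Dnmt1fl/fl replicate 2. Among genes of lipid-laden macrophages, Fabp5, a fatty acid carrier, was at 1248, 969, 2342 and 1102 CPM and Plin2, a coat protein of lipid droplets, at 2008, 1618, 3971 and 1819 CPM, high in Dnmt1KO replicate 1 as Spp1, Lgals3 and Cd9 were. In the same list Lpl (2087, 1737, 1844 and 1274 CPM), Cd36 (2726, 1944, 2352 and 1450 CPM), Fabp4 (346, 176, 326 and 258 CPM) and Mmp12 (1300, 1013, 1286 and 508 CPM) were highest in Dnmt1fl/fl replicate 1.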
